A study of Mus musculus with 12 samples.

Results

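Cytochrome P450 enzymes are haem monooxygenases that insert oxygen into fatty acids, sterols, retinoids, drugs and other small molecules. The genes described here are those whose symbol has the P450 form of Cyp, family number, subfamily letter and gene number. The vitamin D enzymes Cyp27b1 and Cyp24a1 and symbols marked as pseudogenes (-ps) were left out. Of the 40213 gene symbols listed, 103 matched the pattern, 6 were left out and 97 remained. RefSeq lists 95 of the 97 as protein coding, Cyp4x1os as a long non-coding RNA and Cyp2d13 as a transcribed pseudogene.

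The series is bulk RNA-seq of kidney from C57BL/6 mice in 3 groups of 4 libraries. The CKD + colchicine group, called colchicine below, had an adenine diet, a model of chronic kidney disease (CKD), and colchicine at 0.3 mg/kg per day into the peritoneum. Its replicates 1, 2, 3 and 4 are labelled 2, 3, 4 and 5% adenine. The CKD group had a diet with 2% adenine and intraperitoneal saline, and the control group had normal diet and intraperitoneal saline. The labels give no age or sex, place every library in batch 1, and call the replicates biological without saying which animal each came from. The p-values therefore cover the spread between libraries. Because labelled adenine differs in colchicine replicates 2 to 4, colchicine and adenine content cannot be told apart in those libraries.

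In the kidney many P450 genes are active in the proximal tubule. CYP4 enzymes hydroxylate fatty acids and arachidonic acid at the omega end, giving hydroxyeicosatetraenoic acids (HETEs) that act on vessels and salt transport. CYP2C and CYP2J enzymes turn arachidonic acid into epoxyeicosatrienoic acids, and soluble epoxide hydrolase, encoded by Ephx2, degrades these. Enzymes in the endoplasmic reticulum take electrons from the reductase Por and from cytochrome b5, and mitochondrial ones from Fdxr and ferredoxins.

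Library totals ran from 22.2 to 38.3 M counts (1 M is 1000000 counts). Mitochondrially encoded transcripts took 14.6 to 21.8% of the counts with colchicine, 16.7 to 17.3% in CKD and 41.5 to 46.7% in control. Levels below are counts per 1000000 after scaling by the trimmed mean of M-values (CPM), and calls are adjusted p-values under 0.05 in edgeR's quasi-likelihood test over all 17841 genes tested. Scaling by library totals in place of the trimmed mean moved the median log2 change of all genes tested to 1.05 for CKD against control, where the trimmed mean gave 0.04. All directions are therefore relative to the trimmed mean. In bulk tissue, fewer cells of a type and less RNA per cell cannot be told apart.

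P450 transcripts were far scarcer in adenine-fed than in control kidneys. All 97 genes together made 1025, 766, 963 and 1052 counts per 1000000 library counts in colchicine replicates 1 to 4, 1405, 1434, 1617 and 1579 in CKD, and 5748, 6756, 6213 and 6618 in control. No library of one group reached the range of another. The means were 951 ± 129 with colchicine, 1509 ± 105 in CKD and 6334 ± 453 in control (SD, n = 4 each). The CKD mean was 0.238 of the control mean, and the colchicine mean was 0.630 of the CKD mean. Taken over counts outside mitochondrial transcripts, the means were 1161 ± 180 with colchicine, 1818 ± 129 in CKD and 11219 ± 486 in control. A few genes carried the sum: Cyp4b1, Cyp2e1 and Cyp2j5 together held 29.6 ± 8.33% of it with colchicine, 39.9 ± 3.69% in CKD and 66.2 ± 2.89% in control. Cyp1b1 held 16.4 ± 4.65% with colchicine, 10.6 ± 1.65% in CKD and 0.332 ± 0.0736% in control.

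**Figure D1:**
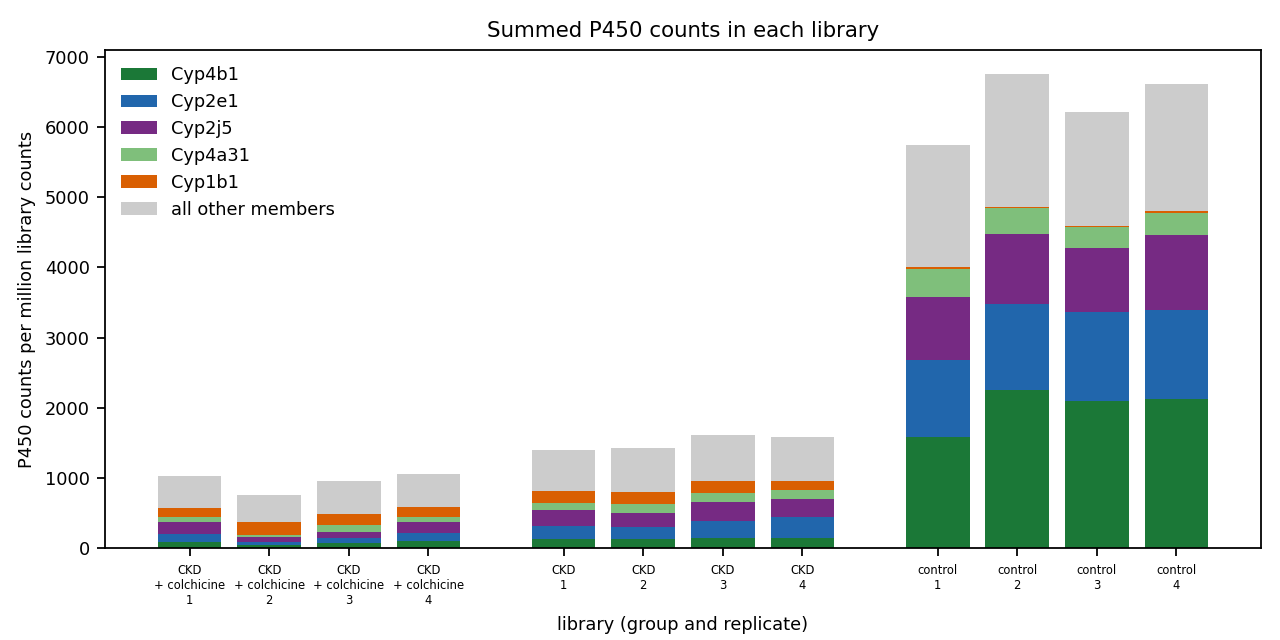
Summed counts of the 97 P450 genes per 1000000 library counts (y axis) in each library (x axis), with the parts held by 5 genes in colour and the rest in grey. The colchicine bars stand at 766 to 1052, the CKD bars at 1405 to 1617 and the control bars at 5748 to 6756.

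Of the 97 genes, 45 had counts enough to be tested. Cyp2c68, Cyp2c69, Cyp2d12, Cyp2j8 and Cyp4f14 reached the filter's minimum count, scaled for depth, in control libraries only. Outside control, Cyp2b10 reached it in colchicine replicate 1 alone. Cyp3a13 reached it in adenine-fed libraries only. For these genes the direction of a call in CKD against control was close to fixed by the filter. For all of them but Cyp2b10 the same holds in colchicine against control. In CKD against control, 29 of the 45 were lower and 9 were higher, against 33.4% lower and 34.1% higher of all 17841 genes tested. With library totals the split of the 45 was 21 lower and 15 higher, against 10.4% lower and 74.0% higher of all genes tested. The median log2 fold change of the 45 was -1.76, and that of all genes tested was 0.04. In colchicine against CKD, 17 of the 45 were lower and 1 was higher, against 8.24% lower and 6.79% higher of all genes, with a median of -0.26 for the 45 and 0.03 for all. In colchicine against control, 26 were lower and 9 higher, against 33.4% lower and 37.1% higher of all genes. With library totals 21 were lower and 15 higher there too, against 10.9% lower and 77.1% higher of all genes. The comparisons share libraries, so they are not independent of each other. For 15 genes all 3 comparisons gave a lower call, and 11 were lower in both adenine groups than in control with no call between those groups. These 11 include Cyp2c68, Cyp2c69, Cyp2d12, Cyp2j8 and Cyp4f14, which passed the filter through control libraries only. The share of all genes with these joint patterns was not counted, so neither number can be set against it.

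The control kidney was dominated by 3 genes. Per kilobase of coding sequence, which allows genes to be compared, Cyp4b1 stood at 2106 ± 249 CPM, Cyp2e1 at 1315 ± 37.0 and Cyp2j5 at 1033 ± 72.1, and these levels did not overlap. Cyp4a31 followed at 363 ± 68.8 CPM per kilobase and overlapped Cyp2a4 at 331 ± 14.1. Below them came Cyp2j13, Cyp4a10 and Cyp7b1, whose neighbours overlapped, then Cyp4a12a at 167 ± 31.2 and Cyp2j11 at 108 ± 10.6 CPM per kilobase. In CKD the order began with Cyp2j5 at 128 ± 14.7 and Cyp2e1 at 122 ± 31.6, which overlapped, followed by Cyp1b1 at 78.0 ± 8.86 and Cyp4b1 at 71.1 ± 6.30, which also overlapped. With colchicine Cyp1b1 had the highest mean, 72.7 ± 9.10 CPM per kilobase, and overlapped Cyp2j5 at 65.4 ± 31.8.

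**Figure D2:**
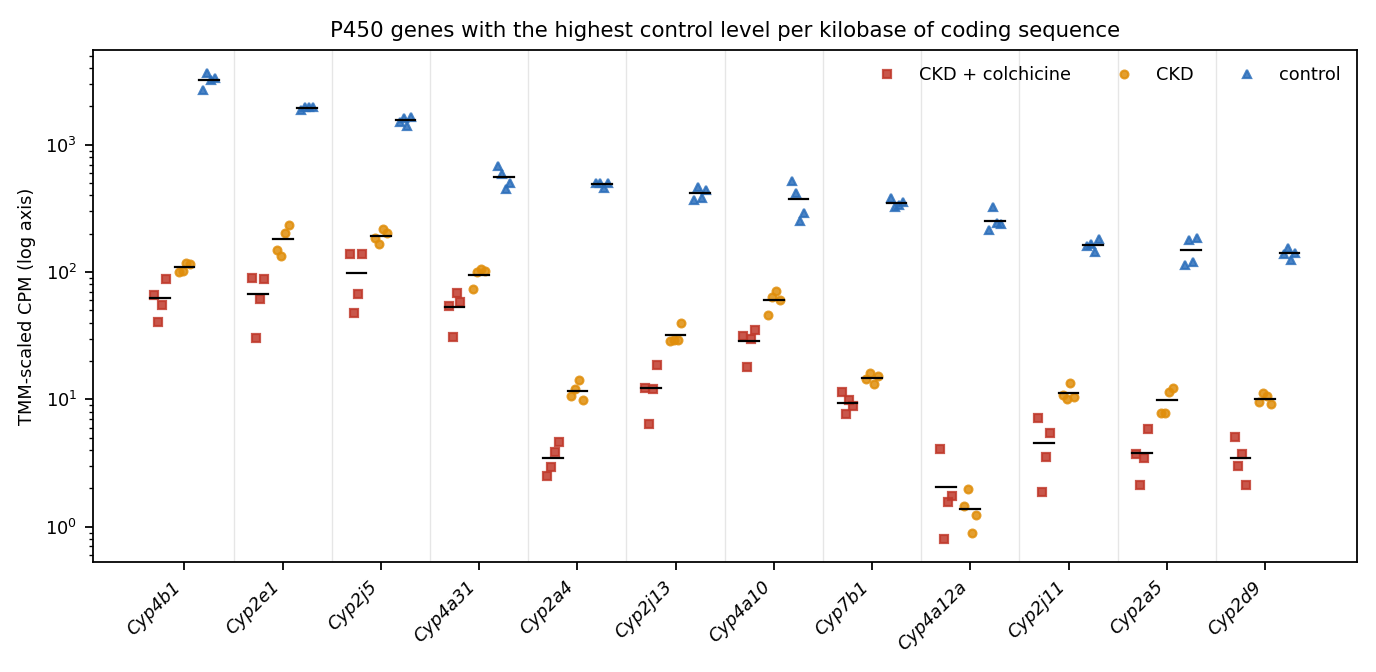
TMM-scaled CPM on a log axis for the 12 P450 genes with the highest control level per kilobase, in the 4 colchicine, 4 CKD and 4 control libraries; points are libraries and bars group means. In all 12 genes every control library lies above every CKD and colchicine library.

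Among the CYP4 genes, 15 of 21 were tested. In CKD against control 8 were lower and 3 higher, with 6 and 6 under library totals, and in colchicine against CKD 4 were lower and 1 higher. The median log2 changes were -1.03 and 0.03. Cyp4f14 passed the filter through control libraries only, so its lower call was close to fixed. The shares over all genes tested were 33.4% lower and 34.1% higher in CKD against control, or 10.4% and 74.0% with library totals. In colchicine against CKD they were 8.24% lower and 6.79% higher.

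Cyp4b1, which hydroxylates fatty acids and activates some foreign compounds, had 66.1, 40.2, 55.5 and 88.3 CPM with colchicine, 100.2, 101, 119 and 116 CPM in CKD, and 2717, 3638, 3240.2 and 3321 CPM in control. The 3 groups did not overlap, and control stood far above both others. The log2 fold change was -4.89 ± 0.21 (SE) for CKD against control (edgeR adjusted p = 7.16e-11) and -0.80 ± 0.18 for colchicine against CKD (edgeR adjusted p = 0.0126). Cyp4a12a, the male-predominant HETE-forming enzyme of mouse kidney, had 4.05, 0.801, 1.55 and 1.74 CPM with colchicine, 1.44, 1.99, 0.893 and 1.23 CPM in CKD, and 214, 323, 242 and 238 CPM in control. The adenine groups overlapped each other and lay far below control. Its log2 fold change was -7.53 ± 0.42 in CKD against control (edgeR adjusted p = 1.65e-08) and 0.55 ± 0.45 in colchicine against CKD (edgeR adjusted p = 0.416). The neighbouring copy Cyp4a12b had a mean of 4.15 ± 2.82 CPM with colchicine, 3.02 ± 0.956 in CKD and 24.9 ± 6.92 in control, and fell by 3.04 ± 0.46 on the log2 scale in CKD against control. The coding sequences of the pair are 98.6% identical and share 41.3% of their windows of 100 bases, so how reads were divided between them is uncertain.

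The PPARA-inducible fatty acid hydroxylases of the Cyp4a group did not move alike. Cyp4a10 had 31.5, 18.0, 29.8 and 35.2 CPM with colchicine, 46.3, 63.8, 71.1 and 60.5 CPM in CKD, and 523, 421, 251 and 294 CPM in control. The 3 groups did not overlap, although control replicates spread widely. It changed by -2.62 ± 0.26 on the log2 scale in CKD against control (edgeR adjusted p = 1.88e-06) and -1.08 ± 0.25 in colchicine against CKD (edgeR adjusted p = 0.018). Cyp4a31 fell by 2.55 ± 0.22 and 0.84 ± 0.21 on the log2 scale in the same 2 comparisons. Cyp4a14 had 24.9, 12.5, 21.1 and 32.3 CPM with colchicine, 55.8, 44.9, 83.2 and 49.0 CPM in CKD, and 96.8, 39.6, 10.4 and 16.0 CPM in control. Control replicates 1 and 3 of this gene were the highest and lowest of all 12 libraries, while colchicine lay wholly below CKD. With all libraries it passed the test in no comparison, with log2 changes of 0.51 ± 0.61 for CKD against control (edgeR adjusted p = 0.487) and -1.37 ± 0.62 for colchicine against CKD (edgeR adjusted p = 0.157). Control replicate 1 decided the first of these: without it Cyp4a14 was called higher in CKD than in control (log2 change 1.39, edgeR adjusted p = 0.0249), as it was with library totals (1.56, edgeR adjusted p = 0.0318). Colchicine against CKD was called with limma-voom (adjusted p = 0.0447) and in a fit of those 8 libraries alone (edgeR adjusted p = 0.0224). Cyp4a32 and Cyp4x1 were called in no comparison of all libraries, although Cyp4a32 was lower with colchicine than in control when colchicine replicate 3 was left out (edgeR adjusted p = 0.0363). The coding sequence of Cyp4a10 is 96.6% identical to that of Cyp4a31 and 97.2% to that of Cyp4a32.

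The Cyp4f genes went in both directions. Cyp4f18, a leukotriene hydroxylase of neutrophils, had 13.0, 7.18, 7.35 and 7.41 CPM with colchicine, 7.60, 9.87, 7.65 and 8.97 CPM in CKD, and 0.350, 0.611, 0.274 and 0.464 CPM in control. Every adenine-fed kidney lay far above control, and colchicine replicate 1 was the highest of all. It rose by a log2 change of 4.28 ± 0.28 in CKD against control (edgeR adjusted p = 2.55e-09), and colchicine against CKD gave 0.03 ± 0.19 (edgeR adjusted p = 0.915). All 5 macrophage markers were also higher in CKD, against 34.1% of all genes tested. They summed to 524 to 724 CPM with colchicine, 658 to 672 CPM in CKD and 69.1 to 81.5 CPM in control. No list of neutrophil markers was used. The part of immune cells in the Cyp4f18 change was not tested. Cyp4f16 rose in CKD against control by 1.30 ± 0.10 on the log2 scale. In that comparison Cyp4f14 fell by 4.92 ± 0.63 and Cyp4f13 by 1.03 ± 0.14, and with library totals Cyp4f13 was not called (edgeR adjusted p = 0.925). Cyp4f15, at 0.235 ± 0.179 CPM with colchicine, 0.205 ± 0.194 CPM in CKD and 0.727 ± 0.318 CPM in control, was called lower in CKD with overlapping groups (log2 change -1.76 ± 0.70, edgeR adjusted p = 0.0375). That call was lost in 8 of 16 alternatives. Cyp4v3, the mouse counterpart of a human gene of retinal lipid metabolism, averaged 22.5 ± 1.42 CPM with colchicine, 27.7 ± 1.14 CPM in CKD and 7.46 ± 0.966 CPM in control. It was 1.89 ± 0.09 higher on the log2 scale in CKD than in control (edgeR adjusted p = 1.42e-10).

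Of 22 CYP2C and CYP2J genes, 9 were tested and all 9 were lower in CKD than in control, or 7 lower and 1 higher with library totals. Cyp2c68, Cyp2c69 and Cyp2j8 passed the filter through control libraries only, so their lower calls were close to fixed. In colchicine against CKD 5 of the 9 were lower and none was higher. Their median log2 changes were -3.17 and -0.61. The shares lower over all genes tested were 33.4% in CKD against control, 10.4% there with library totals, and 8.24% in colchicine against CKD. Cyp2j5, an epoxygenase of the mouse proximal tubule, had 139, 47.9, 67.1 and 139 CPM with colchicine, 185, 165, 216 and 203 CPM in CKD, and 1519.6, 1621, 1415 and 1656 CPM in control. The groups did not overlap, and colchicine replicates 2 and 3 were the lowest libraries. Its log2 fold change was -3.01 ± 0.30 in CKD against control (edgeR adjusted p = 2.20e-06) and -0.97 ± 0.29 in colchicine against CKD (edgeR adjusted p = 0.0423), and the second call was lost in 8 of 19 alternatives.

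Cyp2j13 had 12.3, 6.43, 12.0 and 18.6 CPM with colchicine, 28.8, 29.2, 29.2 and 40.1 CPM in CKD, and 368, 463, 384 and 444 CPM in control. It fell by 3.70 ± 0.26 on the log2 scale in CKD against control (edgeR adjusted p = 4.19e-08) and by 1.38 ± 0.24 in colchicine against CKD (edgeR adjusted p = 0.00564). Cyp2j11 fell by 3.87 ± 0.30 and 1.34 ± 0.30 in the same 2 comparisons. The size of the change differed widely among the 6 tested Cyp2j genes. At the small end Cyp2j9 averaged 9.87 ± 1.65 CPM with colchicine, 14.5 ± 1.36 CPM in CKD and 29.3 ± 2.79 CPM in control. Cyp2j6 averaged 28.3 ± 4.64 CPM with colchicine, 36.6 ± 1.49 CPM in CKD and 46.5 ± 2.75 CPM in control, a log2 change of -0.35 ± 0.10 in CKD against control (edgeR adjusted p = 0.00521). With library totals that change of Cyp2j6 was 0.67 instead. Cyp2c23, whose rat counterpart is the main renal epoxygenase, averaged 3.84 ± 1.19 CPM with colchicine, 5.75 ± 1.28 CPM in CKD and 33.2 ± 4.70 CPM in control. It was lower in CKD than in control (log2 change -2.53 ± 0.20, edgeR adjusted p = 2.70e-08).

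The close copies Cyp2c69 and Cyp2c68 (coding identity 96.5%) were low throughout and close to 0 in adenine-fed kidneys. Cyp2c69 averaged 0.0963 ± 0.0983 CPM with colchicine, 0.0799 ± 0.0397 CPM in CKD and 2.06 ± 0.636 CPM in control. Cyp2c68 had 1 count over the colchicine libraries, 9 over the CKD libraries and 50 over the control libraries. The ratio of its counts in colchicine over control, scaled by the trimmed mean, was 0.00871, with a 95% exact interval of 0.000216 to 0.0508 that covers counting error only. Scaled by library totals it was 0.0180, with an interval of 0.000446 to 0.105. Their sequence upstream of the RefSeq start is shown because these were the only 2 of the 32 tested genes found in the RefSeq promoter table (GRCm38.p6) with the letters CAAAGTCCA, the binding consensus of the liver and kidney factor HNF4A, on either strand. Of all 32851 promoters in the table, 0.384% held it. Capitals mark these letters and GTTAAT, part of the HNF1 site, or its reverse complement. The 250 bases before the start are given in gene direction, from chr19:39886770-39887019 and chr19:39741102-39741351, both on the minus strand, and the pair is 91.4% identical. The bases after the RefSeq start were found in a GENCODE transcript of Cyp2c69 and not in one of Cyp2c68, so the start of Cyp2c68 rests on RefSeq alone.
Cyp2c69: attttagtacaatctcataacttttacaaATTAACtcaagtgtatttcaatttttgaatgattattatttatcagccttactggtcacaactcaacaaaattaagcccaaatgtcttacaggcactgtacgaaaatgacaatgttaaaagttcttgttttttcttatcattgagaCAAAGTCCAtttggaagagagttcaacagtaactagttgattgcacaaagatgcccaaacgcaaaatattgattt
Cyp2c68: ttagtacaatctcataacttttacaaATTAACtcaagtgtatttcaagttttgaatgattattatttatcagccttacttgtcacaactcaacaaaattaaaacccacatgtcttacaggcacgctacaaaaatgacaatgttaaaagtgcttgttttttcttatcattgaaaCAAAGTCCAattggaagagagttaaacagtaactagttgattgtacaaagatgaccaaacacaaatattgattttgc
GTTAAT stood in 7 of the 32 promoters and in 6.43% of all. Hnf4a itself, which encodes that factor, averaged 63.0 ± 16.7 CPM with colchicine, 118 ± 9.07 CPM in CKD and 463 ± 28.4 CPM in control. A match of letters is a description of the window and says nothing of binding.

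Of 33 genes in families that mainly handle drugs and other foreign compounds, 11 were tested. In CKD against control 8 were lower and 3 higher, or 7 and 3 with library totals, and in colchicine against CKD 5 were lower and none was higher. The median log2 changes were -3.43 and -0.25. Cyp2d12 passed the filter through control libraries only, Cyp2b10 through control libraries and colchicine replicate 1, and Cyp3a13 through adenine-fed libraries only. Their directions in CKD against control were therefore close to fixed. Over all genes tested, 33.4% were lower and 34.1% higher in CKD against control, or 10.4% and 74.0% with library totals. In colchicine against CKD the shares were 8.24% lower and 6.79% higher. Cyp2e1, the ethanol-oxidising enzyme, had 89.5, 30.2, 61.9 and 88.8 CPM with colchicine, 150.0, 135, 202 and 236 CPM in CKD, and 1863, 1969.7, 1973 and 1973 CPM in control. The groups did not overlap, and control libraries lay within a narrow range. Its log2 fold change was -3.43 ± 0.31 in CKD against control (edgeR adjusted p = 8.16e-07) and -1.42 ± 0.29 in colchicine against CKD (edgeR adjusted p = 0.0103).

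Cyp2a4, a steroid hydroxylase with sex-dependent levels in mouse kidney and liver, had 2.50, 2.97, 3.87 and 4.63 CPM with colchicine, 10.6, 12.1, 14.3 and 9.93 CPM in CKD, and 503, 502, 459 and 499 CPM in control. The groups were well apart. Its log2 fold change was -5.38 ± 0.17 in CKD against control (edgeR adjusted p = 1.82e-12) and -1.76 ± 0.16 in colchicine against CKD (edgeR adjusted p = 4.34e-05). The coumarin hydroxylase gene Cyp2a5 averaged 3.78 ± 1.53 CPM with colchicine, 9.85 ± 2.32 CPM in CKD and 150.1 ± 38.0 CPM in control. It fell by 3.92 ± 0.28 and 1.42 ± 0.29 on the log2 scale in the same 2 comparisons. The coding sequences of the pair are 98.4% identical and share 13.2% of their windows of 100 bases, so the division of reads is uncertain. Their promoters are shown because the pair fell together and the 250 bases before their RefSeq starts are 97.6% identical. They lie on the plus strand of GRCm38.p6 at chr7:26306942-26307191 and chr7:26835089-26835338, and capitals mark GTTAAT and the TATA box letters TATAAA.
Cyp2a4: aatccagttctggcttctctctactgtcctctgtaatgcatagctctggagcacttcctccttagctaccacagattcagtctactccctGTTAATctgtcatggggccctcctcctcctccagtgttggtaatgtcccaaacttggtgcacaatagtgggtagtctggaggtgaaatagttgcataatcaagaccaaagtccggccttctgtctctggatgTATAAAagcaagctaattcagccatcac
Cyp2a5: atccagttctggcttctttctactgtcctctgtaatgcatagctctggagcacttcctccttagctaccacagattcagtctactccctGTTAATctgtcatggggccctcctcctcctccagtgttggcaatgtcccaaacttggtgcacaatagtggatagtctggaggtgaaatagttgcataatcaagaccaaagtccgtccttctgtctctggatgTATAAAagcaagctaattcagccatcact
TATAAA on either strand stood in 8 of the 32 promoters matched and in 12.4% of all promoters in the table.

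The Cyp2d genes also split. Cyp2d12 had 0.244, 0.0235, 0.0201 and 0.0348 CPM with colchicine, 0.106, 0, 0.0298 and 0.0584 CPM in CKD, and 53.7, 33.8, 40.6 and 42.1 CPM in control. Only 9, 1, 1 and 1 counts lay behind the colchicine values and 3, 0, 1 and 2 behind the CKD values. Its fitted log2 change of -9.66 ± 0.39 in CKD against control (edgeR adjusted p = 3.39e-11) therefore rests on a handful of counts. Its direction was close to fixed, because Cyp2d12 passed the filter through control libraries only. Cyp2d9, a male-predominant testosterone hydroxylase of mouse liver, averaged 3.48 ± 1.24 CPM with colchicine, 10.2 ± 0.961 CPM in CKD and 140.3 ± 12.4 CPM in control. It fell by 3.79 ± 0.18 on the log2 scale in CKD against control (edgeR adjusted p = 1.44e-10) and by 1.53 ± 0.18 in colchicine against CKD (edgeR adjusted p = 0.000356). The coding sequences of Cyp2d9 and Cyp2d12 are 92.2% identical. Cyp2d26 fell by 2.48 ± 0.18 and 0.83 ± 0.17 in these comparisons. In contrast Cyp2d22 had 25.2, 35.3, 41.8 and 25.0 CPM with colchicine, 30.8, 39.2, 31.4 and 30.1 CPM in CKD, and 16.0, 16.5, 19.1 and 20.2 CPM in control. Both adenine groups lay above control, with a log2 change of 0.87 ± 0.16 in CKD against control (edgeR adjusted p = 0.000212).

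Cyp1b1, which oxidises oestrogens and polycyclic hydrocarbons and is induced through the aryl hydrocarbon receptor (AHR), had 98.4, 132, 127 and 116 CPM with colchicine, 129, 138, 135 and 106 CPM in CKD, and 41.0, 29.5, 26.0 and 38.1 CPM in control. The adenine groups overlapped each other and both lay above every control library. It was higher in CKD than in control by a log2 change of 1.91 ± 0.14 (edgeR adjusted p = 1.42e-08), and colchicine against CKD gave -0.10 ± 0.13 (edgeR adjusted p = 0.62). Cyp1a1, another classical AHR-induced gene, was under the count filter and went the other way. It had 4, 0, 1 and 0 counts with colchicine, 0, 0, 0 and 2 in CKD, and 18, 13, 10 and 7 in control. Its ratio of counts in CKD over control was 0.0230 scaled by the trimmed mean, with a 95% exact interval of 0.00271 to 0.0877, and 0.0464 by library totals, with an interval of 0.00547 to 0.177. Cyp1a2, also AHR-induced and under the filter, had 1, 0, 0 and 3 counts with colchicine, 1, 1, 0 and 1 in CKD, and 1, 2, 0 and 0 in control. Fibroblast markers rose with Cyp1b1: all 5 were higher in CKD, against 34.1% of all genes tested. These markers summed to 3832 to 5029 CPM with colchicine, 3107 to 3679.6 CPM in CKD and 350.5 to 422 CPM in control. Their part in the Cyp1b1 change was not tested.

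The 250 bases before the RefSeq start of Cyp1b1, at chr17:79715062-79715311 on the minus strand of GRCm38.p6, are shown because of the genes higher in CKD it had the highest level per kilobase. Capitals mark the reverse complement of GCGTG, the core of the AHR element.
Cyp1b1: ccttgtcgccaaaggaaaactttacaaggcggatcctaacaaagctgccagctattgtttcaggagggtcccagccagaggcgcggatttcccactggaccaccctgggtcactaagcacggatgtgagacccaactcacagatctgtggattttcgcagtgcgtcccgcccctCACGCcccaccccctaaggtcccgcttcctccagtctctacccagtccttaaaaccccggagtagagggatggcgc
These letters stood on either strand in 10 of the 32 promoters matched and in 28.2% of all promoters.

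Cyp3a13, the only tested gene of the drug-oxidising subfamily Cyp3a, averaged 1.30 ± 0.335 CPM with colchicine, 1.55 ± 0.108 CPM in CKD and 0.498 ± 0.0738 CPM in control. It was higher in CKD than in control by a log2 change of 1.63 ± 0.27 (edgeR adjusted p = 7.06e-05). That direction was close to fixed, because Cyp3a13 passed the filter through adenine-fed libraries only. Cyp2f2, known from mouse lung, fell by 1.87 ± 0.36 on the log2 scale. Cyp2b10, the phenobarbital-inducible gene of mouse liver, had 58, 3, 0 and 0 counts in colchicine replicates 1 to 4, 3, 0, 0 and 0 in CKD, and 7, 19, 11 and 10 in control. Its count ratio in CKD over control was 0.0352 scaled by the trimmed mean, with a 95% exact interval of 0.00702 to 0.109, and 0.0711 by library totals, with an interval of 0.0142 to 0.221. The colchicine total came almost wholly from replicate 1. Colchicine against control was not called with it (log2 change -0.74, edgeR adjusted p = 0.564) and was lower without it (-4.55, edgeR adjusted p = 0.000170). The call of lower Cyp2b10 in CKD was lost in 6 of 15 alternatives.

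**Figure D3:**
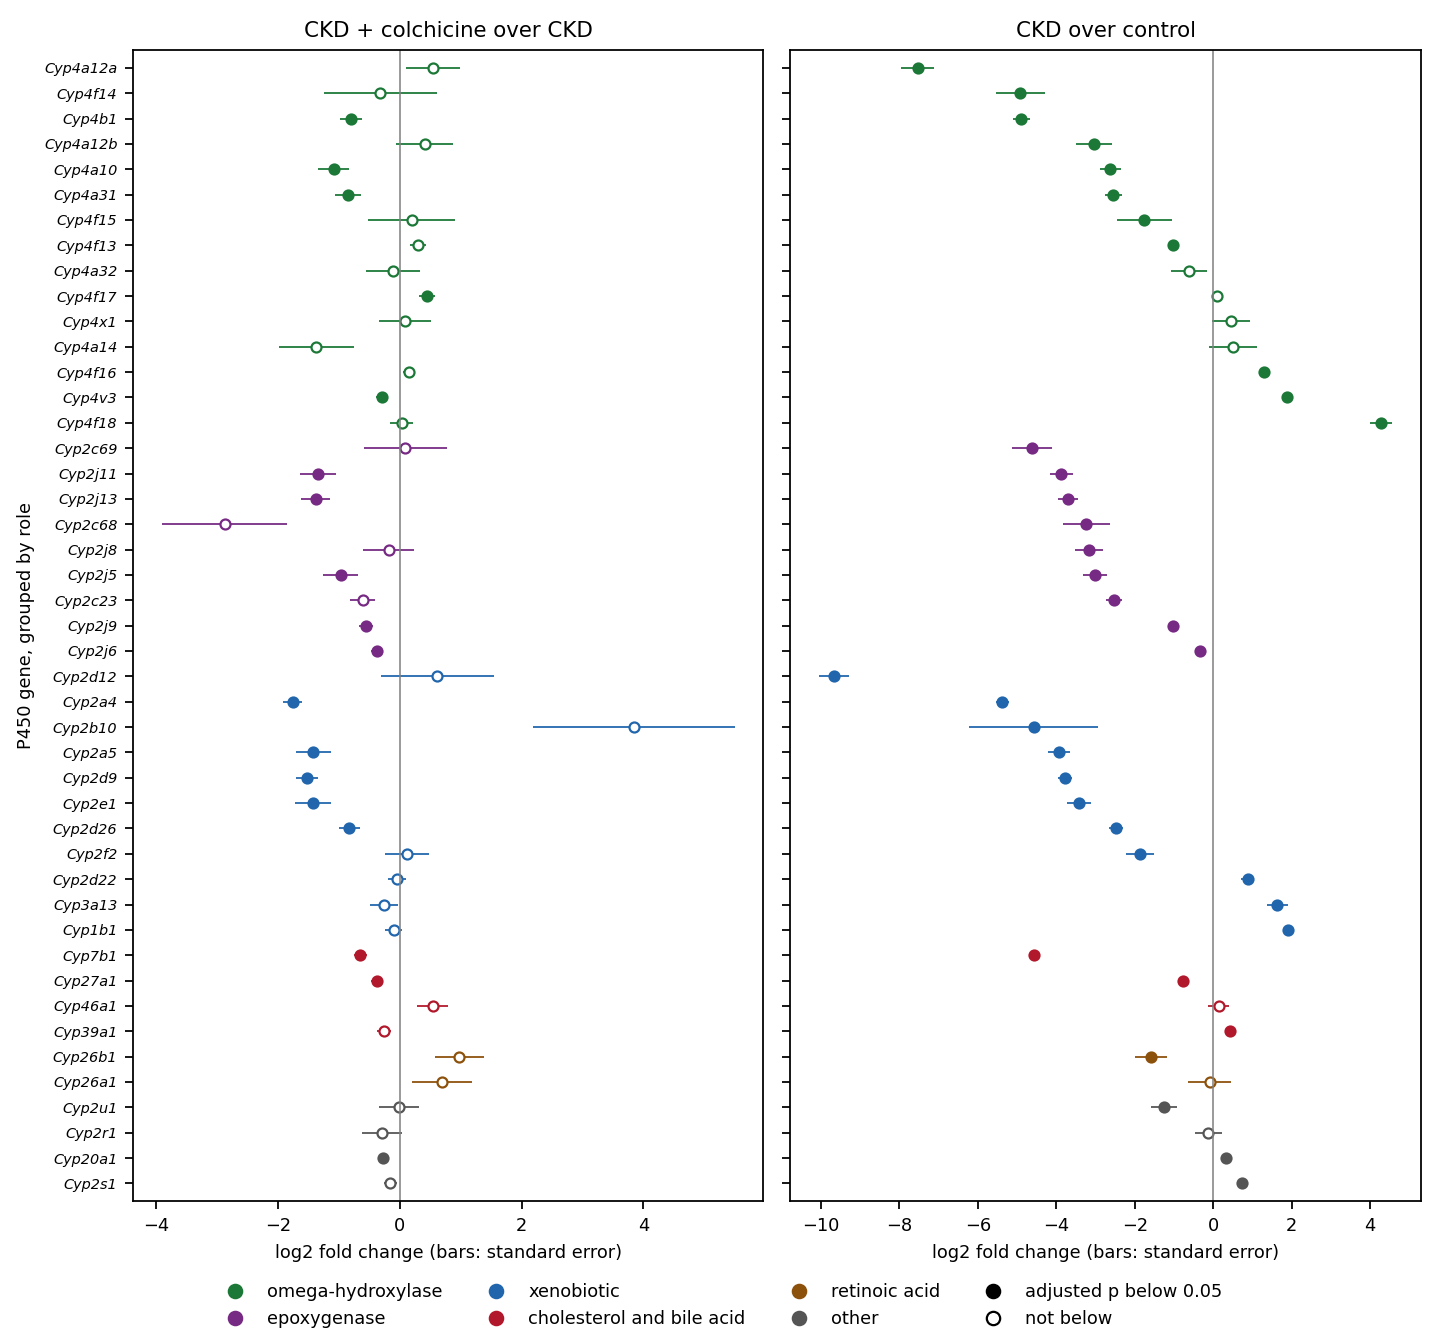
Log2 fold change with its standard error (x axis) of the 45 tested P450 genes (y axis, coloured by role) for CKD + colchicine over CKD (left) and CKD over control (right); filled points passed adjusted p below 0.05. On the right 29 filled points lie below 0 and 9 above, and on the left 17 lie below and 1 above.

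Among the 6 genes of cholesterol and bile acid metabolism 4 were tested. Cyp7b1, the oxysterol and steroid hydroxylase, had 11.4, 7.75, 9.85 and 8.80 CPM with colchicine, 14.6, 16.2, 13.1 and 15.4 CPM in CKD, and 379, 324, 337 and 356 CPM in control. The groups did not overlap. The log2 change was -4.56 ± 0.12 in CKD against control (edgeR adjusted p = 3.78e-13) and -0.65 ± 0.11 in colchicine against CKD (edgeR adjusted p = 0.00286). The mitochondrial sterol hydroxylase Cyp27a1 averaged 20.3 ± 3.25 CPM with colchicine, 26.5 ± 1.10 CPM in CKD and 45.1 ± 2.01 CPM in control, a log2 change of -0.77 ± 0.10 in CKD against control. Under library totals that change was 0.24, just short of a call (edgeR adjusted p = 0.05). Cyp39a1, another oxysterol hydroxylase, was 0.43 ± 0.12 higher in CKD than in control on the log2 scale (edgeR adjusted p = 0.00456). Cyp46a1, the cholesterol hydroxylase of neurons, was called only in colchicine against control (log2 change 0.68 ± 0.26, edgeR adjusted p = 0.0316), a call lost in 9 of 17 alternatives. The liver genes Cyp7a1 and Cyp8b1, which start and steer bile acid synthesis, were under the filter, with 12 and 18 counts over all 12 libraries.

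Of the retinoic acid hydroxylases, Cyp26b1 had 7.80, 5.11, 3.81 and 3.97 CPM with colchicine, 2.25, 2.03, 3.42 and 2.75 CPM in CKD, and 14.2, 6.77, 8.22 and 2.61 CPM in control. It was called lower in CKD than in control although control replicate 4 lay within the CKD range (log2 change -1.59 ± 0.41, edgeR adjusted p = 0.0036), and library totals ended the call (edgeR adjusted p = 0.182). Colchicine lay wholly above CKD, but the change of 0.98 ± 0.40 did not pass (edgeR adjusted p = 0.113). Cyp26a1 was called in no comparison. Among the remaining genes, Cyp2s1, a P450 of epithelia outside the liver, rose by 0.72 ± 0.11 and the orphan Cyp20a1 by 0.33 ± 0.08 on the log2 scale in CKD against control. Cyp2u1, a fatty acid hydroxylase, fell by 1.25 ± 0.33, and with library totals it was not called (edgeR adjusted p = 0.505). Cyp2r1, the vitamin D hydroxylase of the liver, was called in no comparison, with a CKD against control change of -0.13 ± 0.35.

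**Figure D4:**
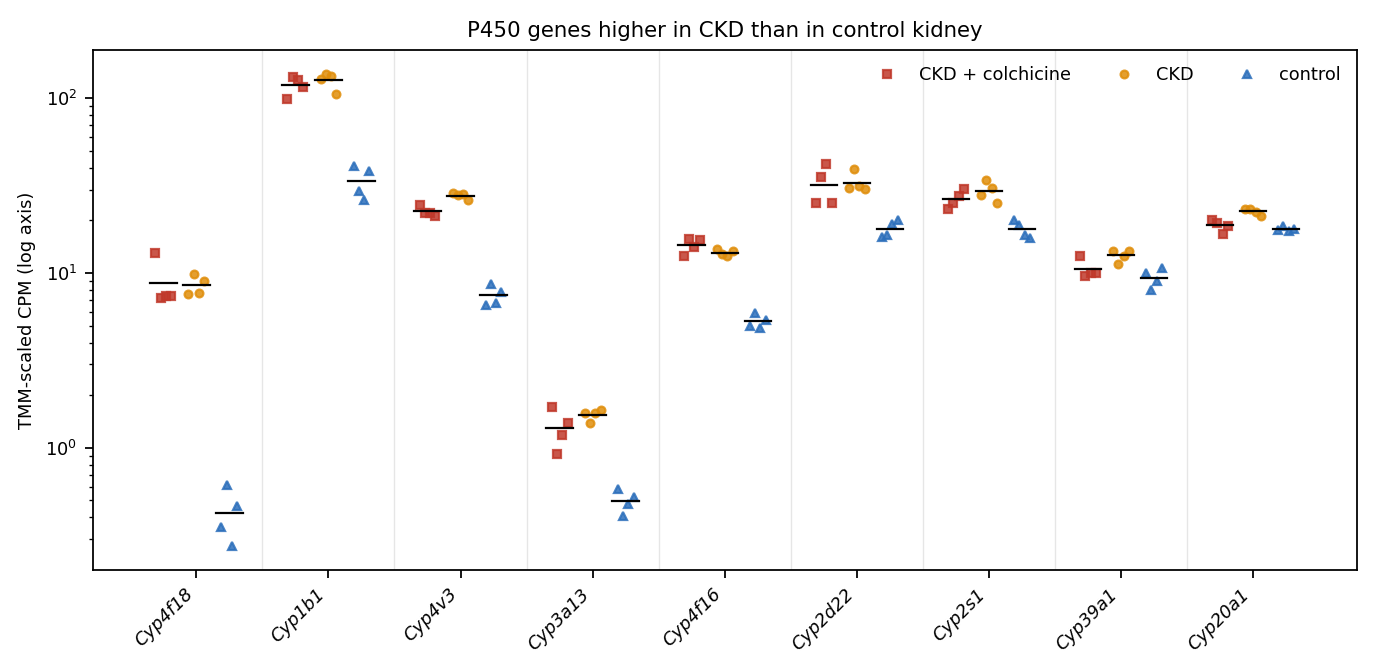
TMM-scaled CPM on a log axis of the 9 P450 genes called higher in CKD than in control, in the 4 colchicine, 4 CKD and 4 control libraries; points are libraries and bars group means. For Cyp4f18 every CKD library lies at 7.60 or more and every control library at 0.611 or less.

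Of the 10 genes with the highest control level per kilobase, 9 were lower with colchicine than in CKD, against 8.24% of all genes tested. Cyp4a12a was the exception. Of the 18 calls in colchicine against CKD, 5 held under every alternative tried, namely Cyp2a4, Cyp2d9, Cyp2j13, Cyp2j9 and Cyp4b1. Of the 38 calls in CKD against control, 30 held under every alternative in which the gene was tested. Cyp2c68, Cyp2c69, Cyp2j8 and Cyp4f14, among these 30, were not tested at a minimum count of 50. Leaving out CKD replicate 3 left 10 genes lower, against 3.29% of all genes, and leaving out colchicine replicate 3 left 11, against 4.26%. A fit with a slope on labelled adenine, read at 2%, left 9 lower, against 3.45% of all genes. Colchicine replicate 1 is the only one labelled with the 2% of the CKD group. A fit with it as the sole colchicine library has no spread of its own for that group and assumes that it varies like the CKD and control libraries; 9 genes were lower there, against 3.70% of all genes. With that single-library fit set aside, 7 of the 18 calls held under every other alternative. In the slope fit and the single-library fit Cyp2a4 had log2 changes of -2.25 and -2.24. The calls of Cyp4v3 (log2 change -0.30 ± 0.09, edgeR adjusted p = 0.0337) and Cyp20a1 (-0.27 ± 0.07, edgeR adjusted p = 0.0277) were each lost in 12 of 19 alternatives. Those of Cyp4a10, Cyp4a31 and Cyp27a1 were lost in 5, that of Cyp2j6 in 3, those of Cyp2e1, Cyp2d26 and Cyp2j11 in 2, and those of Cyp2a5 and Cyp7b1 in 1. The only higher call, Cyp4f17, had 12.2, 17.0, 21.6 and 16.9 CPM with colchicine, 12.8, 13.1, 11.6 and 12.2 CPM in CKD, and 11.0, 12.1, 11.6 and 11.5 CPM in control. Colchicine replicate 1 lay within the CKD range, and the call (log2 change 0.45 ± 0.13, edgeR adjusted p = 0.0343) was lost in 11 of 19 alternatives.

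The 52 genes under the filter were low everywhere. Of these, 7 had no count in any library, 24 had 1 to 9 counts over all 12 libraries, and the highest, Cyp2c65, had 75. This gene of the CYP2C family had 6, 3, 15 and 9 counts with colchicine, 6, 8, 10 and 12 in CKD, and 0, 0, 4 and 2 in control. It thus went the other way from the tested CYP2C genes. The 52 genes under the filter include all 6 steroid-forming genes. Cyp11a1, the side-chain cleavage enzyme that starts steroid synthesis, had 5, 9, 16 and 3 counts with colchicine, 10, 7, 8 and 7 in CKD, and 1, 1, 2 and 1 in control. Its count ratio in CKD over control was 3.53 scaled by the trimmed mean, with a 95% exact interval of 1.37 to 11.6, and 7.13 by library totals, with an interval of 2.76 to 23.4. Cyp21a1, a steroid hydroxylase of the adrenal cortex, had 9, 6, 8 and 8 counts with colchicine, 10, 7, 1 and 2 in CKD, and 0, 1, 0 and 0 in control. Its ratio in CKD over control was 11.0 scaled by the trimmed mean, with an interval of 1.77 to 457.6, and 22.3 by library totals, with an interval of 3.56 to 924. Beside them, summed adrenal cortex markers stood at 7.91 to 9.84 CPM with colchicine, 7.80 to 9.25 CPM in CKD and 6.20 to 7.75 CPM in control. Of the 6 markers, 4 were tested and 2, Star and Mc2r, were higher in CKD, against 34.1% of all genes tested. The defining factor Nr5a1 was at or near 0, averaging 0.0174 CPM with colchicine, 0.00730 CPM in CKD and 0.0171 CPM in control. Cyp17a1 had 20, 10 and 14 counts over the colchicine, CKD and control libraries.

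The enzymes' electron donors were lower as well. Of 8 redox partners, 7 were lower in CKD than in control and none was higher, against 33.4% lower and 34.1% higher of all genes tested. With library totals 4 were lower and 3 higher, against 10.4% lower and 74.0% higher of all genes. The reductase Por averaged 72.5 ± 9.72 CPM with colchicine, 98.8 ± 7.15 CPM in CKD and 299 ± 19.2 CPM in control. It fell by 1.60 ± 0.09 on the log2 scale in CKD against control (edgeR adjusted p = 7.58e-10) and by 0.45 ± 0.09 in colchicine against CKD (edgeR adjusted p = 0.00771). Cytochrome b5 (Cyb5a) fell by 2.72 ± 0.10 and 0.40 ± 0.10, and the mitochondrial ferredoxin Fdx1 by 2.17 ± 0.10 in the first comparison alone. Cyb5r3 was not called.

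Of 13 nuclear receptors and factors that act on P450 genes, 12 were tested, and in CKD against control 8 were lower and 3 higher (4 and 6 with library totals). In colchicine against CKD 3 were lower: Ppara fell by 1.24 ± 0.12, Hnf4a by 0.90 ± 0.15 and the bile acid receptor Nr1h4 by 0.75 ± 0.12. In CKD against control Hnf4a fell by 1.98 ± 0.15 and Ppara by 0.84 ± 0.12, a change of 0.17 for Ppara under library totals. Ahr rose by 1.64 ± 0.21 (edgeR adjusted p = 7.73e-06). Of 6 AHR target genes outside the family 2 were higher and 3 lower in CKD (3 and 2 with library totals): Ahrr, the AHR repressor, fell by 2.65 ± 0.31, while Gsta1 rose by 3.13 ± 0.44. Of 10 PPARA target genes 6 were lower and 1 higher in CKD (5 and 3 with library totals), and 4 were lower in colchicine against CKD, with the peroxisomal enzyme gene Ehhadh at -3.98 ± 0.22 and -1.18 ± 0.20. Beside these 3 lists, 33.4% of all genes tested were lower and 34.1% higher in CKD against control. With library totals the shares were 10.4% and 74.0%. In colchicine against CKD 8.24% were lower and 6.79% higher.

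Ephx2, whose product degrades the epoxides, averaged 27.9 ± 6.96 CPM with colchicine, 43.3 ± 4.62 CPM in CKD and 469 ± 42.9 CPM in control. It fell by 3.44 ± 0.15 in CKD against control (edgeR adjusted p = 6.98e-11) and by 0.63 ± 0.14 in colchicine against CKD (edgeR adjusted p = 0.0122). Of 5 P450 genes outside the naming rule, the cholesterol-forming Cyp51 fell by 3.06 ± 0.13 and the prostacyclin synthase Ptgis rose by 1.49 ± 0.19 in CKD against control. The vitamin D enzymes Cyp24a1 and Cyp27b1 were called neither there nor in colchicine against CKD.

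Markers of the proximal tubule, where many of these enzymes are made, were lower alongside. All 12 proximal tubule markers were lower in CKD than in control, against 33.4% of all genes tested, and none was at 0. Their summed level ran from 649.9 to 1178 CPM with colchicine, 1391 to 1777 CPM in CKD and 39663 to 42911 CPM in control. In colchicine against CKD 5 of the 12 were lower, against 8.24% of all genes tested: Slc5a12, Cubn, Slc22a6, Slc27a2 and Slc7a13. The phosphate transporter Slc34a1 changed by -0.37 ± 0.17 (edgeR adjusted p = 0.136) and the glucose transporter Slc5a2 by -0.01 ± 0.19 (edgeR adjusted p = 0.973). Liver markers, a check on RNA from another P450-rich tissue, summed to 42.8 to 74.4 CPM with colchicine, 139.8 to 167 CPM in CKD and 355 to 605 CPM in control, nearly all of it Ttr, while Alb averaged 0.656 ± 0.109 CPM with colchicine, 1.27 ± 0.441 CPM in CKD and 7.96 ± 2.55 CPM in control.

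Markers of other cells changed too, not all in the direction of the P450 genes. Of 5 markers of collecting duct and loop of Henle, 4 were lower in CKD than in control (3 lower and 2 higher with library totals) and 4 were lower with colchicine than in CKD. Their summed level ran from 761.7 to 1210.0 CPM with colchicine, 1347 to 1626 CPM in CKD and 2113 to 2713 CPM in control, with no overlap between groups. All 5 injured tubule markers were higher in CKD than in control, and with colchicine 1 of them, Vcam1, was lower than in CKD. These summed to 1216 to 1759 CPM with colchicine, 1237 to 1365 CPM in CKD and 18.0 to 20.1 CPM in control. Of 5 endothelial markers 4 were lower in CKD than in control, or 1 lower and 3 higher with library totals, and with colchicine 1 was higher than in CKD. Over all genes tested, 33.4% were lower and 34.1% higher in CKD than in control, or 10.4% and 74.0% with library totals. In colchicine against CKD 8.24% were lower and 6.79% higher. The part of the proximal tubule and of these other cells in the P450 changes was not tested.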

How the data were processed

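The labels' protocols name RNAiso Plus for RNA extraction from kidney and the CORALL RNA-seq V2 kit for libraries. The submitters' processing notes list fastp, STAR, Salmon and GRCm39, with no versions, annotation or parameters. Each library has its own file of deposited whole numbers per gene. These were treated as estimated counts (expected counts) that the authors had rounded, though no label states the unit.

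Genes were kept by filterByExpr of edgeR 4.0.16 in R 4.3.3 (minimum count 10; 17841 genes), scaled by TMM and fitted on all 12 libraries with 3 group means by a robust quasi-likelihood model. Two-sided tests were adjusted over all 17841 genes by Benjamini-Hochberg, and SD is over the 4 libraries of a group. The model was tested on simulated counts. A permutation test of the summed level was planned and is not printed, because the members were chosen with results known.

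The genes, roles and gene lists were chosen with earlier results of these data known, so counts over lists carry no test. Genes are named if among the 10 highest per kilobase in control, among the largest called changes with groups that do not overlap and a mean count of 50 or more, or on a list of genes chosen whatever their result. From that list Cyp2c29, Cyp2c38, Cyp2c39, Cyp3a11, Cyp3a25, Cyp11b1, Cyp11b2, Cyp19a1 and Cyp26c1, all under the filter, are not given with separate values. Coding lengths were taken from GENCODE M21 (GRCm38) because the planned protein table was not used here, and coding and promoter sequences from GENCODE and RefSeq on GRCm38. Of the 45 tested genes, 32 were found in the RefSeq promoter table.

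Alternatives were DESeq2 1.42.0, limma-voom (limma 3.58.1), upper-quartile and library-total scaling, mitochondrial transcripts left out, no filter or a minimum count of 50, a fit of the 8 libraries of each comparison, a replicate block, a slope on labelled adenine, colchicine replicate 1 alone, and leaving out each library in turn. Intervals are exact binomial at 95% and cover counting error only.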

Additional observations from a re-analysis of the deposited data

Results flagged for a closer look

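Within 138 groups of 4 libraries, 135 of them of the tested P450 genes and 3 of the summed P450 level, 13 held a library whose gap to its nearest neighbour exceeded Dixon's critical share of the group's range (95% level). For normally distributed values chance alone sets about 1 in 20 such groups apart. That rate need not hold where counts are few, as for Cyp2b10, Cyp2c68, Cyp2c69 and Cyp2d12. Of the 13, 6 were in colchicine, 4 in CKD and 3 in control, and 4 of them were colchicine replicate 1.

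In colchicine replicate 1, Cyp2b10 stood at 1.58 CPM (58 counts), where the other colchicine libraries had at most 3 counts. The same library held Cyp2d12 at 0.244 CPM (9 counts, against at most 1 in the others), Cyp39a1 at 12.6 CPM (others 9.56 to 10.1) and Cyp4f18 at 13.0 CPM (others 7.18 to 7.41). Colchicine replicate 2 had the only Cyp2c68 count of its group, 0.0235 CPM. Colchicine replicate 4 had Cyp2c69 at 0.243 CPM (7 counts, others at most 2).

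In CKD, replicate 1 had 3 counts of Cyp2b10 (0.106 CPM) where the others had 0. Its Cyp4a31 level of 73.7 CPM lay below the others at 99.7 to 105. CKD replicate 2 had Cyp2d22 at 39.2 CPM (others 30.1 to 31.4), and CKD replicate 4 had Cyp2j13 at 40.1 CPM (others 28.8 to 29.2).

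In control, Cyp2a4 stood at 459 CPM in replicate 3 (others 499 to 503) and Cyp2e1 at 1863 CPM in replicate 1 (others 1969.7 to 1973). Control replicate 3 had Cyp2u1 at 0.890 CPM, 13 counts (others 1.38 to 1.46 CPM).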

How the results depend on the processing

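Library totals in place of TMM gave 15 P450 genes higher in CKD than in control and 15 higher in colchicine than in control, where 74.0% and 77.1% of all genes tested were higher under that scaling. In colchicine against CKD, the number higher was 0 with the replicate block, 2 with DESeq2 and 2 with colchicine replicate 1 alone, and 0 to 3 when each library was left out. The number lower was 9 with a slope on labelled adenine read at 2% and 9 with colchicine replicate 1 alone, a single library assumed to vary like the other groups, and 10 to 18 when each library was left out. The summed level per 1000000 counts outside mitochondrial transcripts was 1161 with colchicine, 1818 in CKD and 11219 in control, and per 1000000 library counts without Cyp4b1, the gene with the most counts over all 12 libraries, 1372 in CKD and 4316 in control.

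Library totals turned the log2 change in CKD against control for Cyp2j6 to 0.67, for Cyp27a1 to 0.24 and for Cyp2r1 to 0.88, and in colchicine against control for Cyp4f13 to 0.30 and for Cyp2j6 to 0.31. Colchicine replicate 1 alone gave -0.034 for Cyp4f17 against CKD. These causes were not tested, beyond the shift in the median of all genes. Of 2333 gene values under alternatives, 70 changed sign with neither value called. Some calls held under every alternative in which the gene was tested. These were 30 of 38 in CKD against control, 5 of 18 in colchicine against CKD and 31 of 35 in colchicine against control. Both the 30 and the 31 include Cyp2c68, Cyp2c69, Cyp2j8 and Cyp4f14, which were not tested at a minimum count of 50.

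Deviations of same-numbered libraries from their group means correlated at -0.279 to 0.189. Differently numbered libraries were not compared in this way, so these values cannot decide whether replicate numbers pair the libraries. With the replicate number as a block, 37 of the 38, 15 of the 18 and 34 of the 35 calls remained. Genes with few counts, such as Cyp2b10, Cyp2c68 and Cyp4f15, are limited by depth.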
